A study of Mus musculus with 6 samples.

Results

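Neutrophils kill and signal with superoxide made by the phagocyte NADPH oxidase, and the genes described here are the parts of that enzyme together with the channel that keeps it running. The set was chosen by name, from known membership of the complex, at a time when earlier results of these data were known. It holds 7 genes: Cybb, Cyba, Ncf1, Ncf4, Rac1, Rac2 and Hvcn1. They were 7 of the 38887 gene identifiers in the count table, and all 7 were among the 12259 genes with enough counts to be tested.

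In a resting neutrophil the oxidase is kept apart. Its catalytic core, a flavocytochrome of gp91phox (Cybb) and p22phox (Cyba), sits in the membranes of granules, secretory vesicles and the cell surface, whereas cytosolic subunits, among them p47phox (Ncf1) and p40phox (Ncf4), wait in the cytosol. When the cell is stimulated, p47phox is phosphorylated, the cytosolic subunits move to the membrane, and a Rac GTPase loaded with GTP completes the enzyme, which carries electrons from cytosolic NADPH across the membrane to oxygen. The voltage-gated proton channel encoded by Hvcn1 lets protons follow those electrons, so that charge and acid do not build up in the cell. Loss of the flavocytochrome or of a cytosolic phox subunit causes chronic granulomatous disease in humans.

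RNA was sequenced from Ly6G+ neutrophils that had been selected with magnetic beads from bone marrow (BM) of 3 groups of mice. These were naive mice without tumor, mice that had carried LL2 tumors for 1 week (one-week LL2 mice) and mice that had carried them for 3 weeks (three-week LL2 mice), with 2 libraries in each group that the labels number as replicate mice. LL2 is a mouse Lewis lung carcinoma line. The study's methods describe tumor-bearing (TB) mice made by intravenous injection of luciferase-expressing LL2 cells into syngeneic C57BL/6 mice, which places the tumor in the lung, and tie no sex or age to these libraries. The labels name no gene deletion and no drug in any group, and no group of injected mice without tumor cells was analysed here. The comparison asks how BM neutrophils of the early and the late stage differ from those of naive mice and from each other, and because 1 set of naive libraries serves both comparisons with naive mice, those comparisons are not independent. Bead selection was stated to leave cells other than neutrophils at a few percent at most. Fewer cells of a type and less RNA per cell cannot be told apart in such bulk libraries. The p-values measure the spread between libraries labelled as separate mice.

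The libraries held between 11994158 and 14127919 counts, so that 3 counts, taken as the limit of detection, stood for 0.212 to 0.25 CPM, counts scaled to a common library total. This limit covers counting error only, since reads copied by PCR are not independent molecules. All CPM values below use library totals multiplied by TMM factors, which scale libraries to each other and lay between 0.913 and 1.07. Neutrophil markers were abundant. The 12 markers together gave between 285100 and 349000 CPM, most of it from S100a8 and S100a9, the calprotectin subunits. Ly6g itself, whose protein was used for the selection, was nearly absent as RNA in this table, with 0.491 to 2.14 CPM. Of the 12 markers, the granule protein genes Ltf, Camp and Ngp were lower in three-week LL2 mice than in naive mice, with log2 fold changes of -0.64, -1.04 and -0.51 and edgeR adjusted p-values of 0.00194, 1.73e-04 and 0.0116. In the same comparison Cxcr2, a chemokine receptor of mature neutrophils, and Retnlg were higher, by 0.70 and 0.44 on the log2 scale (adjusted p = 0.00288 and 0.0136).

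Transcripts of the oxidase were among the most abundant of these cells with the exception of the proton channel. To compare levels between genes, CPM were divided by the length of the longest coding transcript of each gene in kilobases. On this scale Cyba stood first in naive mice at 715 ± 126 CPM per kb (SD, n = 2), the percentile 99.3 among 12101 genes with a length. Ncf1 followed at 363 ± 6.5, Cybb at 275 ± 19.7, Rac2 at 207 ± 23.7, Ncf4 at 181 ± 21.6 and Rac1 at 109 ± 2.59 CPM per kb. Of these, the lowest percentile was 95.4, for Rac1. Hvcn1 was far lower, at 9.35 ± 1.01 CPM per kb, the percentile 69.8. In that order Rac2 and Ncf4 were the only neighbours whose naive libraries overlapped, at 190 and 223 against 166 and 196 CPM per kb. In three-week LL2 mice the levels of Ncf4, Rac2 and Cybb, at 249 ± 1.73, 246 ± 4.65 and 232 ± 29.4 CPM per kb, could not be separated, because their libraries overlapped. With the length of all merged exons instead, a choice made after the data were seen, the order of the naive means was the same, but the overlaps differed. Naive Cybb (237 and 214 CPM per kb) then overlapped Rac2 (186 and 219), and Rac2 lay clear above Ncf4 (120 and 142). At 3 weeks Rac2 (237 and 244 CPM per kb) lay above both Ncf4 (182 and 180) and Cybb (173 and 207).

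**Figure D1:**
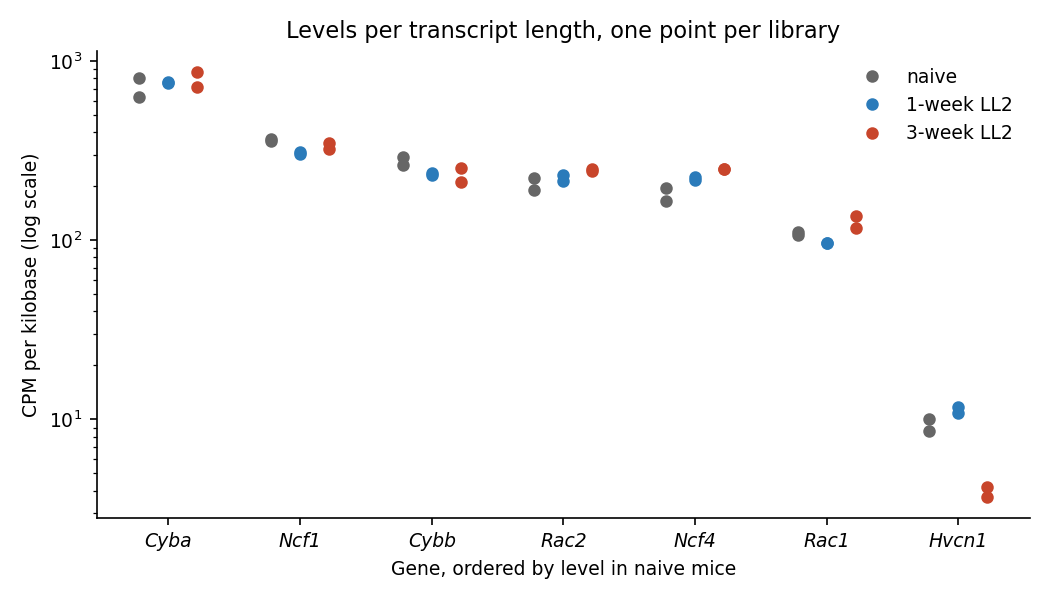
Level of each gene in CPM per kilobase of its longest coding transcript, on a log axis, with 1 point for each library and the groups side by side from left to right as naive mice, 1 week and 3 weeks. Cyba lies highest and Hvcn1 lowest in every group, and the three-week points of Hvcn1, at 3.71 and 4.17, lie below all its other points.

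The sum of the 7 genes was 4164 and 4356 CPM in naive mice, 3961 and 4021 CPM in one-week LL2 mice and 4331 and 4284 CPM in three-week LL2 mice. Under TMM scaling the three-week libraries lay between the naive libraries, and the one-week libraries lay below all others. With library totals alone the three-week libraries were the lowest, so this order rests on the scaling.

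The membrane subunits came first. Cybb (X:9435252-9487771, minus strand of GRCm38) encodes gp91phox, the chain that binds FAD and the hemes and carries the electrons. Its level was 1374 and 1242 CPM in naive mice, 1102 and 1124 CPM in one-week LL2 mice and 1005 and 1203 CPM in three-week LL2 mice. All 4 libraries of TB mice lay below both naive libraries. The difference did not pass the test, with a log2 fold change of -0.23 at 1 week (95% interval -0.49 to 0.03, adjusted p = 0.267) and of -0.24 at 3 weeks (-0.50 to 0.01, adjusted p = 0.169). Between 3 weeks and 1 week the difference was -0.01 on the log2 scale, with an interval of -0.27 to 0.24.

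Cyba (8:122424776-122432930, minus strand) encodes p22phox, which stabilises gp91phox in the membrane and offers p47phox its docking site. Its level was 466 and 598 CPM in naive mice, 569 and 559 CPM in one-week LL2 mice and 645 and 534 CPM in three-week LL2 mice. The groups overlapped in every comparison. The log2 fold changes against naive mice were 0.08 at 1 week (95% interval -0.21 to 0.38) and 0.15 at 3 weeks (-0.15 to 0.44).

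Since both chains form 1 heterodimer, their ratio was also read within each library, where scaling between libraries plays no part. The log2 ratio of Cybb to Cyba counts was 1.56 and 1.05 in naive mice, 0.96 and 1.01 in one-week LL2 mice and 0.64 and 1.17 in three-week LL2 mice. Both naive libraries exceeded those of 1 week, and the three-week libraries spread on either side of the one-week libraries. In a two-sided exact permutation test the difference from naive mice was -0.33 at 1 week (p = 0.333) and -0.40 at 3 weeks (p = 0.667), where 0.333 is the smallest p that 2 libraries against 2 allow.

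Among the cytosolic subunits, Ncf1 (5:134220053-134229625, minus strand) encodes p47phox, the organiser whose phosphorylation starts assembly. It was at 1035 and 1061 CPM in naive mice, at 892 and 876 CPM in one-week LL2 mice and at 1003 and 933 CPM in three-week LL2 mice. Both one-week libraries lay below all other libraries. The log2 fold change at 1 week was -0.25 (95% interval -0.48 to -0.02), with an adjusted p of 0.183 over all genes, and the difference at 3 weeks was -0.11 (-0.34 to 0.12, adjusted p = 0.494).

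Ncf4 (15:78244801-78262580, plus strand) encodes p40phox, which binds phosphatidylinositol 3-phosphate on phagosomes and sustains oxidase activity there. Its level was 243 and 287 CPM in naive mice, 319 and 328 CPM in one-week LL2 mice and 367 and 364 CPM in three-week LL2 mice. No groups overlapped, and the three-week libraries were the highest. Ncf4 rose to 1.38-fold of the naive level at 3 weeks (log2 fold change 0.46, SE 0.12, adjusted p = 0.0127). At 1 week the log2 fold change was 0.29 (95% interval 0.04 to 0.54, adjusted p = 0.149), and from 1 week to 3 weeks it was 0.17 (-0.07 to 0.42, adjusted p = 0.304). The call at 3 weeks rested on 1 library, since without naive replicate 1 the log2 fold change was 0.31 with an adjusted p of 0.14.

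Outside the set of 7, Cybc1, which encodes a chaperone that the flavocytochrome needs to mature, was at 107 and 123 CPM in naive mice, 110 and 108 CPM in one-week LL2 mice and 141 and 151 CPM in three-week LL2 mice. It rose from 1 week to 3 weeks by 0.42 on the log2 scale (adjusted p = 0.0207), and against naive mice its difference at 3 weeks was 0.35 (adjusted p = 0.0511).

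**Figure D2:**
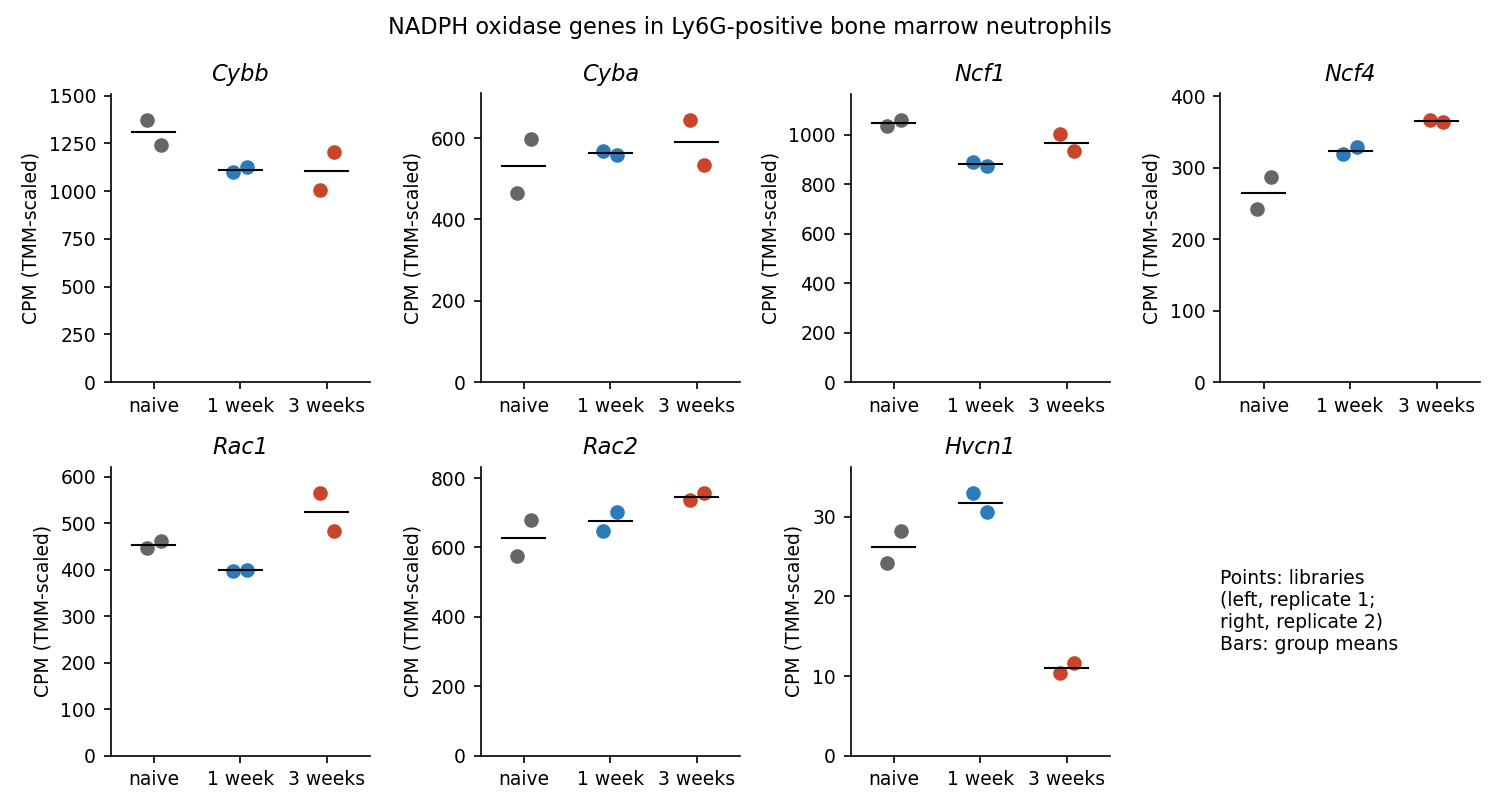
Level of each of the 7 genes in CPM, on axes that start at 0, with 1 point for each library (replicate 1 left, replicate 2 right) and a bar at the group mean. Ncf4 is highest at 3 weeks, Rac1 is lowest at 1 week, and Hvcn1 drops to 10.4 and 11.7 CPM at 3 weeks.

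Rac1 and Rac2 encode the GTPases that complete the active enzyme. Rac2 is made mainly in blood cells and is the form that neutrophils chiefly use, whereas Rac1 is made in most cells. The coding sequences of their longest coding transcripts in the GENCODE annotation of GRCm38 are both 576 bases long and share 444 bases (77.1%). Their last 60 coding bases, positions 517 to 576 counted from the start codon, are shown because the proteins differ most in this tail, which carries the basic residues and the lipid anchor. Capitals mark the bases that differ.
Rac1: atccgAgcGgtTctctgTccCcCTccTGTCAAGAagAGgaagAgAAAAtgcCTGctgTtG
Rac2: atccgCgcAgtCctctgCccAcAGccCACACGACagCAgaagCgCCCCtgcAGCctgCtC
Only 33 of these 60 bases are the same. The longest stretch that both coding sequences share without a difference is their first 29 bases, shorter than a read of 75 bases as the labels give it, and none of the 75-base windows of the one transcript occurs in the other.
Shared start: atgcaggccatcaagtgtgtggtggtggg

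Rac1 (5:143503634-143528036, minus strand) was at 446 and 461 CPM in naive mice, 398 and 399 CPM in one-week LL2 mice and 564 and 483 CPM in three-week LL2 mice. The one-week libraries were the lowest and the three-week libraries the highest, with no overlap between groups. Against naive mice neither difference passed the test, at -0.19 on the log2 scale for 1 week (95% interval -0.43 to 0.06, adjusted p = 0.361) and 0.21 for 3 weeks (-0.04 to 0.45, adjusted p = 0.224). From 1 week to 3 weeks Rac1 rose 1.31-fold (log2 fold change 0.39, SE 0.11, adjusted p = 0.0251). This call was lost without one-week replicate 1 (0.37, adjusted p = 0.154), without one-week replicate 2 (0.37, adjusted p = 0.168) and without three-week replicate 1 (0.29, adjusted p = 0.175). On the opposite strand, exons of Daglb share 2309 bases with those of Rac1, and 54.7% of the 75-base windows of the Rac1 transcript also occur in Daglb. The strand setting of the counting was not given in the sources used here. Daglb held 110 to 212 counts in a library, against 5351 to 7277 for Rac1, and was lower at 3 weeks than at 1 week (-0.58 on the log2 scale, adjusted p = 0.0415).

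Rac2 (15:78559167-78572783, minus strand) was at 577 and 679 CPM in naive mice, 649 and 704 CPM in one-week LL2 mice and 736 and 756 CPM in three-week LL2 mice. The three-week libraries lay above all others, and the naive and one-week libraries overlapped. The log2 fold change at 3 weeks was 0.25 (95% interval -0.00 to 0.50, adjusted p = 0.151) and at 1 week 0.11 (-0.14 to 0.36, adjusted p = 0.64). The log2 ratio of Rac2 to Rac1 counts was 0.37 and 0.56 in naive mice, 0.70 and 0.82 in one-week LL2 mice and 0.38 and 0.65 in three-week LL2 mice. It was highest in both one-week libraries. The difference between 1 week and naive mice was 0.30, with the smallest p the exact permutation test allows, 0.333, and between 3 weeks and 1 week it was -0.25 with the same p.

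Hvcn1 (5:122206804-122242297, plus strand) encodes the proton channel. It showed the largest change of the 7 genes in both comparisons with the three-week group. Its level was 24.2 and 28.2 CPM in naive mice, 33.0 and 30.6 CPM in one-week LL2 mice and 10.4 and 11.7 CPM in three-week LL2 mice. These stood on 306 and 345, 494 and 410, and 134 and 152 counts. Both three-week libraries were under 0.5 of every other library, and the one-week libraries were the highest. Hvcn1 fell 2.37-fold from naive mice to three-week LL2 mice (log2 fold change -1.25, SE 0.16, 95% interval -1.58 to -0.91, adjusted p = 1.21e-04). From 1 week to 3 weeks it fell 2.88-fold (log2 fold change -1.52, SE 0.15, interval -1.86 to -1.19, adjusted p = 2.0e-05). At 1 week its log2 fold change against naive mice was 0.28 (-0.03 to 0.59, adjusted p = 0.274).

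Several markers of other cells moved with Hvcn1, a gene that B lymphocytes also express. The 9 B-lineage markers summed to 59.8 and 48.1 CPM in naive mice, 60.5 and 47.8 CPM in one-week LL2 mice and 14.2 and 12.5 CPM in three-week LL2 mice. All 9 were lower at 3 weeks in both comparisons, whereas 0 were called at 1 week by edgeR or DESeq2 and 0 had an unadjusted p under 0.05. Igll1, the surrogate light chain of pre-B cells, was at 0 in three-week replicate 1 and under the limit of detection in replicate 2. The 4 basophil and mast cell markers summed to 21.5 and 21.9 CPM in naive mice, 60.2 and 64.3 CPM in one-week LL2 mice and 3.8 and 9.69 CPM in three-week LL2 mice. The 7 markers of neutrophil precursors summed to 277 and 239 CPM in naive mice, 192 and 259 CPM at 1 week and 343 and 449 CPM at 3 weeks. Among them 5, those of granule proteins and Ms4a3, were higher at 3 weeks than in naive mice, while the proliferation genes Mki67 and Top2a were lower, with log2 fold changes of -0.73 and -1.33 (adjusted p = 0.00389 and 1.57e-05). The sums of the 8 monocyte and macrophage markers, at 160 to 209 CPM, overlapped between naive and three-week mice. Of these markers, F13a1 was higher at 3 weeks than in naive mice (2.39 on the log2 scale, adjusted p = 3.23e-04) and Cx3cr1 was lower (-1.59, adjusted p = 0.00197). The 6 markers of T and NK cells summed to 13.9 and 12.9 CPM in naive mice, 15.8 and 24.4 CPM at 1 week and 8.45 and 11.2 CPM at 3 weeks, lowest at 3 weeks. Of the 2 with enough counts to be tested, Cd3d was lower at 3 weeks than in naive mice (-1.98, adjusted p = 9.88e-05) and Nkg7 was higher (1.60, adjusted p = 0.0115). The 5 erythroid markers summed to 363 and 324 CPM in naive mice, 379 and 412 CPM at 1 week and 325 and 135 CPM at 3 weeks, and 1 of them, Klf1, was lower at 3 weeks than in naive mice (-1.69, adjusted p = 0.0189). Over all 6 libraries the summed markers of eosinophils lay between 48.1 and 67.8 CPM and those of platelets between 56.5 and 104 CPM. Of the 4 platelet markers 3 were lower at 3 weeks than in naive mice. The part of these markers, and of the granule protein genes given above, in the change of Hvcn1 was not tested.

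**Figure D3:**
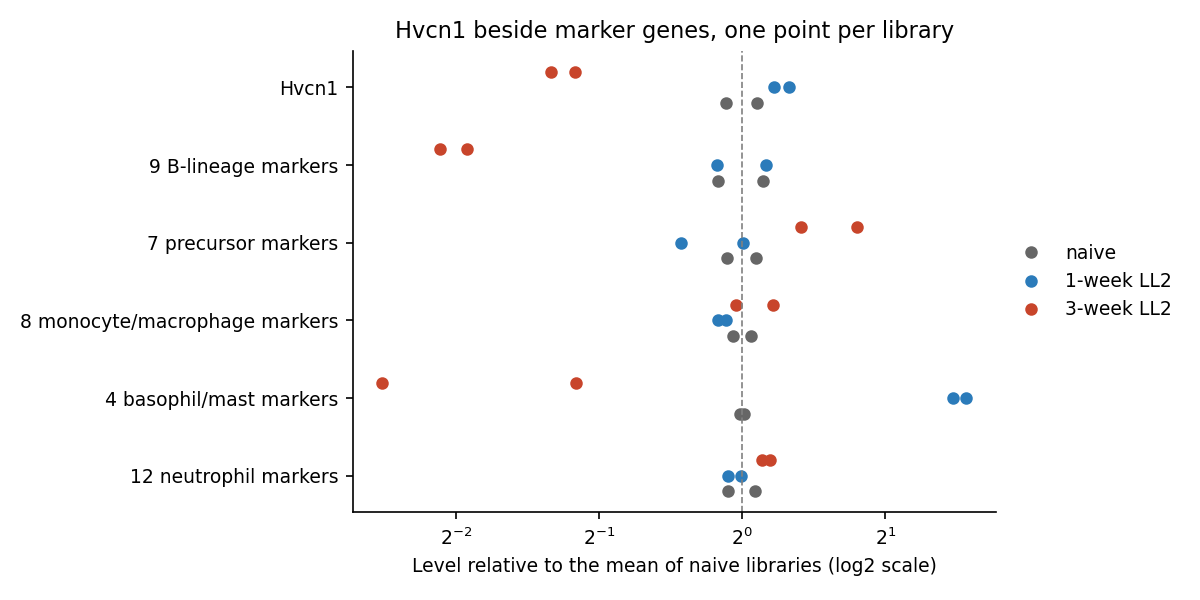
Level of Hvcn1 and summed level of marker genes of each cell type, relative to the mean of the naive libraries on a log2 axis, with 1 point for each library. At 3 weeks Hvcn1 lies at 0.396 and 0.446 of the naive mean, the B-lineage sum at 0.263 and 0.231 and the basophil and mast cell sum at 0.175 and 0.447.

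Exons of Tctn1 on the opposite strand share 1574 bases with those of Hvcn1, and 49.8% of the 75-base windows of the Hvcn1 transcript occur in Tctn1 too. Tctn1 held between 9 and 23 counts in a library, fewer than the lowest Hvcn1 count of 134. For Ncf1 the share was 5.63% of windows, with Gtf2ird2, and for Cybb, Cyba, Ncf4 and Rac2 no window occurred in another gene.

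By count, 0 of the 7 genes were called at 1 week by edgeR, where 7.99% of all genes tested were called, 4.23% higher and 3.76% lower. At an unadjusted p under 0.05 there were 2, Ncf1 and Ncf4, and DESeq2 also called 0. At 3 weeks against naive mice 2 of 7 were called, Ncf4 higher and Hvcn1 lower, beside 21.4% of all genes (12.0% higher and 9.42% lower). From 1 week to 3 weeks 2 of 7 were called, Rac1 higher and Hvcn1 lower, beside 22.5% of all genes (12.9% higher and 9.57% lower). Libraries did not overlap for 5 genes at 1 week, 6 at 3 weeks and 5 between 3 weeks and 1 week, where the shares over all genes were 53.2%, 59.6% and 63.8%. The numbers of called genes stand near what these shares would give for any 7 genes and are no feature of the set. The median log2 fold change of the 7 genes was 0.08, 0.15 and 0.13 in these comparisons, beside 0.01, 0.03 and -0.02 over all genes tested.

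**Figure D4:**
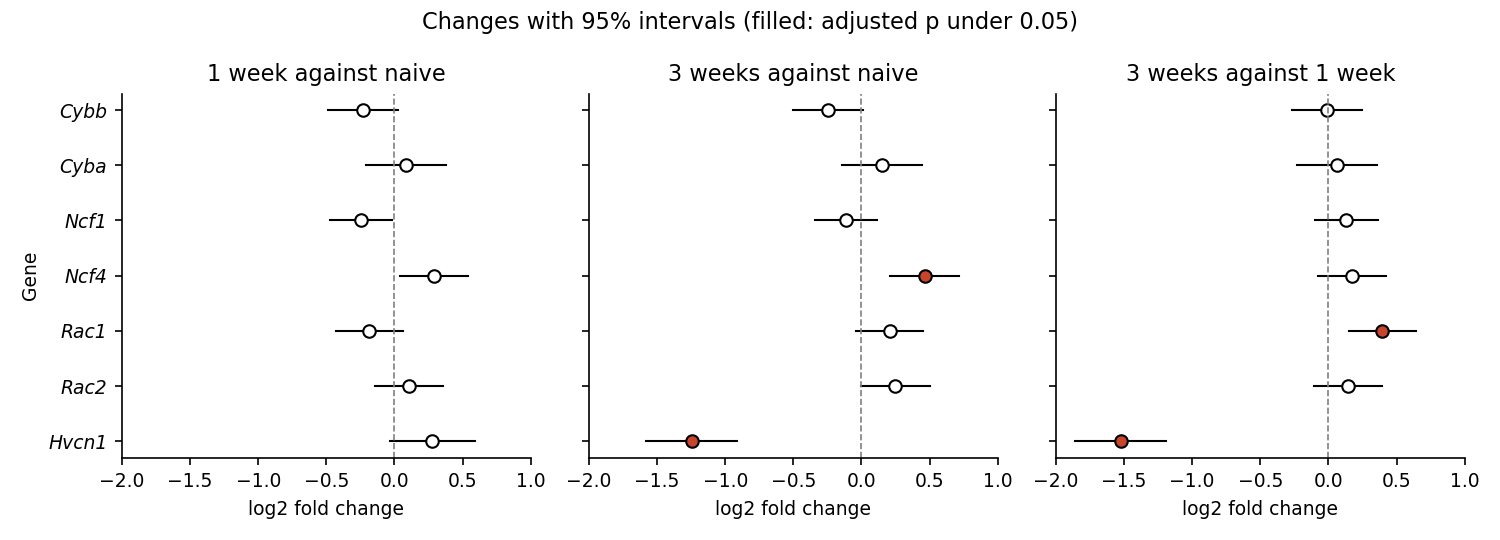
Fitted log2 fold change of each gene with its 95% interval in the 3 comparisons, with filled points where the adjusted p was under 0.05. Filled are Ncf4 at 0.46 and Hvcn1 at -1.25 for 3 weeks against naive mice, and Rac1 at 0.39 and Hvcn1 at -1.52 for 3 weeks against 1 week, and no gene for 1 week against naive mice.

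The small changes moved with the scaling between libraries. Under library totals alone, the order of libraries given above changed for the sum of the set and for Ncf1, Ncf4, Rac1 and Rac2. With library totals alone in place of TMM, the median of all genes shifted from 0.03 to -0.11 on the log2 scale for 3 weeks against naive mice and from -0.02 to -0.22 for 3 weeks against 1 week. The share of higher genes among those called went from 56% to 34.7% and from 57.5% to 28.6%, and at 1 week from 52.9% to 68.6%. Ncf4 at 3 weeks then stood at 0.32 on the log2 scale (adjusted p = 0.0538), and Rac1 between 3 weeks and 1 week one of 0.19 (adjusted p = 0.225). Cybb at 3 weeks fell past the threshold under library totals, at -0.39 with an adjusted p of 0.0377. Relative to the median of all genes, Ncf4 stood at 0.43 and Cybb at -0.28 under both scalings, and Rac1 at 0.42 under TMM and 0.41 under library totals. A change of scaling shifts all genes nearly alike, so these relative values agree by construction and cannot test the calls. Hvcn1 was called in every one of 13 alternative fits in both comparisons, with log2 fold changes between -1.39 and -1.12 against naive mice and between -1.73 and -1.43 against one-week LL2 mice.

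The genes around the enzyme were read in lists. Over all genes tested, 7.99% were called at 1 week, 21.4% at 3 weeks and 22.5% between 3 weeks and 1 week. The counts called in each list are to be read beside these shares. Of 32 genes for assembly and activation (other subunits, Rac exchange factors and inhibitors, kinases), 31 were tested, and 1 was lower at 1 week, Pik3cd. At 3 weeks 2 were higher than in naive mice, among them Akt1, and 1 was lower, Tiam1. Tiam1, an exchange factor that loads Rac with GTP, was at 38.7 and 28.5 CPM in naive mice, 31.6 and 34.1 CPM in one-week LL2 mice and 12.3 and 18.1 CPM in three-week LL2 mice. It fell by 1.15 on the log2 scale against naive mice (adjusted p = 0.00104) and by 1.11 against one-week LL2 mice (adjusted p = 0.00118). Between 3 weeks and 1 week 6 genes were higher, namely Cybc1, Cdc42, Arhgdia, Arhgap25, Pik3cd and Pak2, with log2 fold changes between 0.38 and 0.57. The names of Pik3cd, Akt1, Cdc42, Arhgdia, Arhgap25 and Pak2 were added after their values were seen. The list's median log2 fold change was -0.09 at 1 week, 0.12 at 3 weeks and 0.09 between them.

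Of 10 genes that supply NADPH, 0 were called at 1 week by edgeR and 0 by DESeq2, with 1 at an unadjusted p under 0.05. At 3 weeks G6pdx, the entry enzyme of the pentose phosphate pathway, rose from 131 and 174 CPM in naive mice to 390 and 487 CPM, with 171 and 180 CPM at 1 week. All three-week libraries lay above the others. The log2 fold change was 1.52 against naive mice (adjusted p = 1.58e-05) and 1.32 against one-week LL2 mice (adjusted p = 4.77e-05). In the other direction, Pgls, the next enzyme of that pathway and named after its values were seen, fell by 0.54 at 3 weeks against naive mice (adjusted p = 0.0221). H6pd, the glucose-6-phosphate dehydrogenase of the endoplasmic reticulum, fell by 0.59 between 1 week and 3 weeks (adjusted p = 0.0107). The list's median was 0.02, 0.20 and 0.14 in the 3 comparisons.

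Of 7 other channels and transporters for charge and pH, 0 were called at 1 week by edgeR and 0 by DESeq2, with 1 at an unadjusted p under 0.05. At 3 weeks 1 was called, Trpm2, a cation channel that hydrogen peroxide opens. It was at 313 and 294 CPM in naive mice, 287 and 236 CPM in one-week LL2 mice and 162 and 193 CPM in three-week LL2 mice. It fell by 0.78 at 3 weeks against naive mice (adjusted p = 0.00101) and by 0.56 against one-week LL2 mice (adjusted p = 0.00767). The list's median was -0.03, -0.08 and 0.08.

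Of 14 genes that handle superoxide and peroxide, 13 were tested. Mpo, the myeloperoxidase that makes hypochlorous acid from peroxide, rose from 34.9 and 23.3 CPM in naive mice and 29.2 and 47.8 CPM in one-week LL2 mice to 119 and 167 CPM in three-week LL2 mice. The log2 fold change was 2.30 against naive mice (adjusted p = 2.73e-05) and 1.90 against one-week LL2 mice (adjusted p = 9.01e-05). Mpo is also 1 of the 7 precursor markers, of which 5 were higher and 2 lower at 3 weeks, and the part of precursors in its change was not tested. Gpx1, a glutathione peroxidase, rose by 0.47 on the log2 scale at 3 weeks against naive mice (adjusted p = 0.0206) and by 0.59 against one-week LL2 mice (adjusted p = 0.00566). Also called, and named after their values were seen, were Txn1, higher in both groups of TB mice than in naive mice (0.52 and 0.49), and Prdx6, lower at 3 weeks in both comparisons (-0.56 and -0.49). The list's median was 0.05, -0.01 and -0.13.

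Of 13 transcription factors known to act on promoters of phox genes, 11 were tested. At 1 week Irf8 and Irf2 were lower than in naive mice, by 0.70 and 0.68 on the log2 scale (adjusted p = 0.0156 and 0.00423), where Irf2 was named after its values were seen. At 3 weeks Cebpb and Cux1, the latter known as a repressor of Cybb, were higher than in naive mice, and 4 were lower, among them Cebpa, Cebpe and Irf8. Cebpb was at 373 and 278 CPM in naive mice, 502 and 364 CPM in one-week LL2 mice and 929 and 953 CPM in three-week LL2 mice. Its log2 fold change was 1.53 against naive mice (adjusted p = 3.56e-05) and 1.12 against one-week LL2 mice (adjusted p = 3.17e-04). Cebpe, needed for late granulocyte maturation, was at 87.4 and 93.3 CPM in naive mice, 103 and 111 CPM in one-week LL2 mice and 44.4 and 46.6 CPM in three-week LL2 mice. It fell by 0.99 and 1.23 in these comparisons (adjusted p = 8.49e-05 and 1.37e-05). Cux1 rose by 0.74 and 0.87. Cebpa, which starts the granulocyte program, was low throughout, at 7.83 and 10.3 CPM in naive mice, 10.7 and 10.1 CPM in one-week LL2 mice and 3.96 and 5.08 CPM in three-week LL2 mice. It fell by 1.00 against naive mice (adjusted p = 0.00742) and was lower than at 1 week too (adjusted p = 0.00203). Between 3 weeks and 1 week 4 factors were higher, Cebpb, Cux1, Spi1 and Irf2, and 3 were lower, among them Cebpa and Cebpe. Spi1, which encodes PU.1 and was named after its values were seen, was higher there by 0.48 on the log2 scale (adjusted p = 0.0174). The list's median was -0.10, -0.24 and 0.09.

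**Figure D5:**
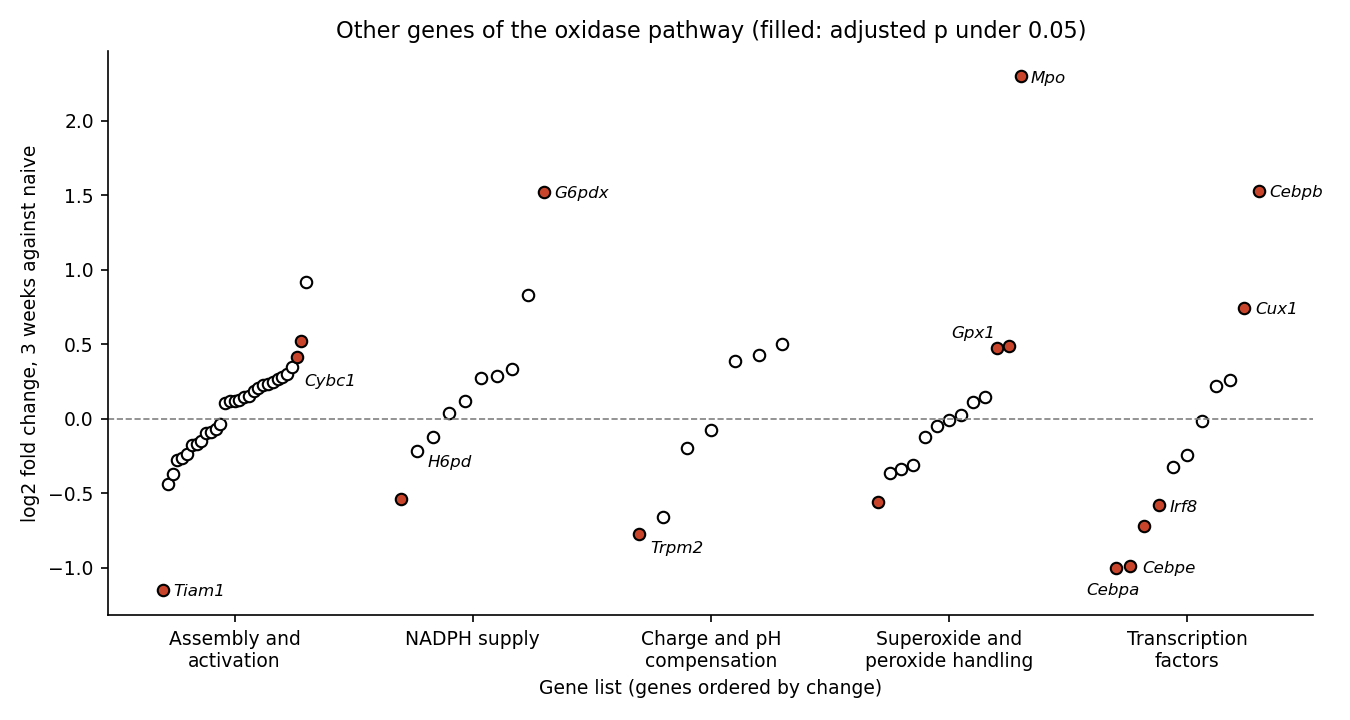
Log2 fold change between three-week LL2 mice and naive mice of every tested gene in 5 lists around the oxidase, ordered by change within each list, with filled points where the adjusted p was under 0.05. G6pdx at 1.52, Mpo at 2.30 and Cebpb at 1.53 lie highest in their lists, and Tiam1 at -1.15 and Trpm2 at -0.78 lie lowest in theirs.

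Other NADPH oxidases were at or near the limit of detection. Nox4, the only 1 of 9 such genes with enough counts to be tested, had 2 to 12 counts in a library, and the groups overlapped. Noxo1 had 1 to 6 counts, and Nox1, Noxa1, Duox1 and Duoxa2 had 0 in all libraries. Nox3, Duox2 and Duoxa1 had 0 in most libraries and at most 1, 4 and 2 counts. At this depth a count of 0 allows up to 0.25 CPM of the library total, before TMM scaling.

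For the 3 genes of the set that were called, the genes with the most similar log2 CPM over the 6 libraries were listed as a description. With Ncf4 these were Aldh3b1 (r = 0.995), Cpsf3 (0.993) and Rpl22 (0.99), and 103 genes had an r over 0.95. With Rac1 they were Irak4 (0.998), Uspl1 (0.995) and Atp6v0a1 (0.994), among 91 such genes. With Hvcn1 they were Vcl (0.997), Tagap (0.997) and Zfp697 (0.996), among 256. Tagap was at 93.7 ± 9.87 CPM in naive mice, 116 ± 3.65 CPM in one-week LL2 mice and 30.8 ± 2.11 CPM in three-week LL2 mice (SD, n = 2). Zfp697 was low throughout, with means of 0.849 CPM in naive mice and 1.36 CPM in one-week LL2 mice, and was at 0 in both three-week libraries. The log2 fold change at 3 weeks against naive mice was -0.50 for Vcl and -1.25 for Hvcn1. The points share their libraries and fall into 3 groups, so a high r needs little more than a like pattern of group means, whatever the size of the change.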

How the data were processed

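The authors deposited 1 table of estimated counts per gene from RSEM, as whole numbers without scaling between libraries, for 6 single-end total RNA libraries of Ly6G+ BM cells. The labels name Bowtie2, RSEM and mm10, and the read length of 75 bases used here is theirs, while the study's methods give shorter reads and another RSEM release. Here 2 libraries per group were analysed, although the study gives more samples per group. Symbols (37570 of 38887 identifiers), positions, lengths and transcript sequences came from GENCODE on GRCm38.

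Genes kept by filterByExpr (12259) were scaled by TMM and compared with edgeR 4.0.16 in R 4.3.3 by the quasi-likelihood F test, fitted to the 3 groups together with no other factor. Benjamini-Hochberg adjusted p-values over all genes under 0.05 were calls, and 95% intervals are those of the fitted log2 fold changes. Replicates differed beyond counting noise (chi-square per degree of freedom 8.84 to 11.8). Ratios within libraries were compared by a two-sided exact permutation test.

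The members and gene lists were chosen with earlier results of these data known. By rule, the text names all 7 members, of each list the called genes with an absolute log2 fold change of at least 0.58 (up to 6), Cybc1 and other NADPH oxidases, and for called members the 3 genes most alike. Alternatives were DESeq2 1.42.0 (its test and its size factors), library totals, other filters and thresholds, the groups compared only, a replicate block and each library left out. Some list genes that the rule would name are counted but not reported here. No set test was run, and RPKM values were not used here.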

Additional observations from a re-analysis of the deposited data

Results flagged for a closer look

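The effects of tumor stage on Rac1 and Hvcn1 differed between the early and the late group, by the test of the difference itself. For Rac1 the log2 fold change against naive mice was -0.19 at 1 week and 0.21 at 3 weeks, neither past the threshold, and the difference between the stages was 0.39 on the log2 scale (edgeR adjusted p = 0.0251). That call was lost without one-week replicate 1 (adjusted p = 0.154), one-week replicate 2 (adjusted p = 0.168) or three-week replicate 1 (adjusted p = 0.175), and with library totals alone (0.19, adjusted p = 0.225). For Hvcn1 the difference between the stages was -1.52 (edgeR adjusted p = 2.0e-05), and it was called in all 13 alternative fits. Groups of 2 libraries are too small for a search for single outlying libraries.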

How the results depend on the processing

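Of 273 recomputed log2 fold changes of the 7 genes, 257 kept their direction and their side of the threshold, and the cause of the others was not tested. With library totals alone, Cyba (-0.14), Ncf1 (-0.072), Ncf4 (-0.027) and Rac2 (-0.059) changed sign between 3 weeks and 1 week, and 1 gene of the set was called there. With 1 library left out, Cyba ranged from -0.088 to 0.27 at 1 week, from -0.052 to 0.35 at 3 weeks and from -0.063 to 0.20 between them, Rac2 from -0.0087 to 0.23 at 1 week, and Cybb from -0.14 to 0.13 between 3 weeks and 1 week, the low ends being without naive replicate 1 for the comparisons with naive mice, and the sign changes between 3 weeks and 1 week being without three-week replicate 1. With any 1 library left out, 1 to 2 genes of the set were called in each comparison with the three-week group, and 0 at 1 week. The calls over the 6 pathway lists, 4 at 1 week, 16 at 3 weeks and 20 between 3 weeks and 1 week, ranged from 1 to 4, 11 to 15 and 10 to 22 on the same omissions. At an adjusted p under 0.01, 1 gene of the set was called in each comparison with the three-week group, and 1, 10 and 13 list genes. Requiring a change over 5-fold left 0 of both in each comparison, and without a filter on low counts 7 list genes were called at 1 week. Over all genes, the 979, 2626 and 2759 calls became 274, 1339 and 1481 at an adjusted p under 0.01 and 92, 208 and 196 with a change over 5-fold, and 1537 at 1 week without a filter. With a library left out they ranged from 147 to 1145, 1362 to 2392 and 1502 to 2725. The log2 ratio of Rac2 to Rac1 for 3 weeks against naive mice ranged from -0.081 to 0.18 with a library left out (-0.042 without naive replicate 1 and -0.081 without three-week replicate 2), and that of Cybb to Cyba between 3 weeks and 1 week from -0.34 to 0.19 (without three-week replicate 1).

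Libraries with the same replicate number did not deviate together (r across genes of 0.01 to 0.038). This check can miss a shared effect that is small beside the differences between mice, and the labels do not say what the numbers stand for beyond the sample. With the replicate number as a replicate block, 0, 2 and 2 genes of the set and 959, 2559 and 2709 genes in all were called. With 2 libraries per group, intervals of the abundant genes of the set span about 0.5 on the log2 scale from end to end. Among the genes of the set, the smallest difference called in the main fit was that of Rac1, at 0.39 from 1 week to 3 weeks. Smaller ones may have been missed.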
